A study of Homo sapiens with 10 samples.

Results

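The *SMARCA4* knockdown was examined through 6 of the 10 RNA-seq samples of the study, all of VCaP, an established line of luminal prostate cancer cells in which a gene fusion drives *ERG*. They were chosen by their labels: 4 libraries from cells given an siRNA against *SMARCA4* (siRNA A and siRNA B, 2 replicate libraries each) and 2 control libraries, all taken 72 h after transfection. The *SMARCA4* siRNAs were each given at 30 pmol. The study lists a negative control siRNA with 19 bases, whereas each *SMARCA4* siRNA is listed with 27. The sources used here do not tie the negative control siRNA to the control libraries by sequence or state its dose. The part of this difference in length in the results was not tested. The other 4 libraries, from cells given siRNA A or siRNA C against *SMARCA1*, were used to share the estimate of the spread and as a second knockdown to compare with. The cells were otherwise unmodified. Nothing says that the 2 libraries of a group came from separate cultures, so the p-values measure the spread between these libraries, which may be technical.

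*SMARCA4* (BRG1) is one of the alternative ATPase motors of the SWI/SNF complexes, which use ATP to slide or evict nucleosomes and so open enhancers and promoters. A complex holds either *SMARCA4* or its paralog *SMARCA2*, around a core of shared subunits, and is completed by subunits that define the cBAF (*ARID1A*, *ARID1B*, *DPF2*), PBAF (*PBRM1*, *ARID2*, *PHF10*) and ncBAF (*BRD9*, *BICRA*) forms. In prostate epithelium these complexes act at the enhancers of lineage genes. *SMARCA1* is the motor of a different family, ISWI, which spaces nucleosomes.

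Counts were taken for 59386 genes, of which 16899 passed a filter on low counts and were tested. Levels are given as CPM, the counts per unit of library size after scaling by TMM, and are not adjusted for gene length. The library totals were 23898545 to 32570252 counted reads, at which a floor of 3 counts is 0.0921 to 0.126 CPM in these 6 libraries. Each fold change is on the log2 scale from edgeR's quasi-likelihood fit, with its standard error (SE), and p-values were adjusted over all tested genes by the Benjamini-Hochberg method. Genes with an adjusted p below 0.05 are called. The 12 luminal epithelial markers, which include *KRT8*, were all tested and summed to 11000 to 11100 CPM in the controls and 10500 to 11800 CPM in the knockdown. Within that sum single markers moved in both directions. Mean CPM went from 4800 in the controls to 2960 for *KLK2* and from 251 to 144 for *FOLH1*. It went from 540 to 1710 for *KRT8* and from 434 to 774 for *KRT18*. *ERG* was at 388 to 395 CPM in the controls and 254 to 463 CPM in the knockdown. The basal markers *TP63* and *KRT5* were near 0 and did not pass the filter, although *KRT14* and *KRT15* did. The summed basal markers went from 3.26 to 3.72 CPM in the controls to 38.3 to 114 CPM. Of 7 leukocyte markers, 3 had no counts in these 6 libraries, *CD3E* and *MS4A1* among them, and 2 were tested. *LYZ*, a lysozyme of myeloid cells, was at 0.795 and 0.52 CPM in the controls, 15.4 and 4.9 CPM with siRNA A and 6.03 and 1.68 CPM with siRNA B, and the summed leukocyte markers were at 2.34 CPM in each control and 2.39 to 16.1 CPM in the knockdown. The part of these markers in the results was not tested. In bulk RNA, fewer cells of a type and less RNA per cell cannot be told apart. The knockdown library siRNA A replicate 2 stood apart from its partner: interferon-stimulated genes took 2.71% of its counts, against 4.92% in siRNA A replicate 1 and 5.76% to 6.44% with siRNA B.

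The siRNA sequences given with the study are shown because they state which part of *SMARCA4* was targeted. Each was matched to GENCODE v44 transcripts and the hg38 genome. The first is antisense to coding sequence across the junction of exons 18 and 19 of 35, between chr19:11019697-11019701 and chr19:11021725-11021746, and the second is antisense to coding sequence in exon 24, chr19:11027813-11027839. In the first target, capitals mark the 22 bases that lie in exon 19.

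SMARCA4-siRNA-1#: caaucauguacuuccaacggaucuugg

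target of SMARCA4-siRNA-1#: ccaagATCCGTTGGAAGTACATGATTG

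SMARCA4-siRNA-2#: ugggaagaauucuaucaagaagcucaa

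target of SMARCA4-siRNA-2#: ttgagcttcttgatagaattcttccca

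Over its 27 bases each matched only transcripts of *SMARCA4*, and the closest stretch of the paralog *SMARCA2* had 5 mismatches to each. The sources do not state which of these is siRNA A and which is siRNA B.

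*SMARCA4* itself (chr19:10960932-11079426 in hg38, on the plus strand) was at 242 and 268 CPM in the controls, 25.2 and 23.2 CPM with siRNA A and 18.6 and 13.3 CPM with siRNA B. Its log2 fold change was -3.70 (SE 0.13, adjusted p = 3.91e-07), or -3.40 with siRNA A and -4.0 with siRNA B, and the control and knockdown libraries did not overlap. In the *SMARCA1* knockdown it stayed at 228 to 249.7 CPM. Neither *SMARCA2* nor *SMARCA1* was called lower. *SMARCA2*, the alternative SWI/SNF motor, was at 129 and 133 CPM in the controls, 134 and 148 CPM with siRNA A and 112 and 129 CPM with siRNA B, a log2 fold change of -0.01 (SE 0.12, adjusted p = 0.947) that was not called. *SMARCA1*, the ISWI motor, was at 32.3 and 31.5 CPM in the controls, 67.5 and 83.8 CPM with siRNA A and 57.4 and 60.6 CPM with siRNA B. It was higher in all 4 knockdown libraries than in both controls, with a log2 fold change of 1.07 (SE 0.18, adjusted p = 0.001).

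Among the 27 tested SWI/SNF subunit genes, 8 were called higher (29.6%) and 7 lower (25.9%), beside 22.8% higher and 22.3% lower among all tested genes. The 7 include *SMARCA4* itself, whose fall was set by the design, and the shares are not far from those of all tested genes. The genes called higher included subunits that define cBAF. *ARID1A*, its DNA-binding subunit, was at 331 and 343 CPM in the controls, 531 and 529 CPM with siRNA A and 556 and 592 CPM with siRNA B, with a log2 fold change of 0.71 (SE 0.12, adjusted p = 0.0013). *ARID1B*, its alternative, rose by 0.56 and *DPF2*, a reader of acetylated histones in cBAF, by 0.55. *BICRA*, a subunit that defines ncBAF, rose by 0.84, and *BCL7B* and *SMARCC2*, shared subunits, by 0.60 and 0.44. Those called lower included *PHF10* of PBAF, at 81 and 69.3 CPM in the controls, 35.9 and 44.3 CPM with siRNA A and 26.2 and 32 CPM with siRNA B, with a log2 fold change of -1.14 (SE 0.12, adjusted p = 8.52e-05). The shared actin-like subunit *ACTL6A* (-0.69) and the scaffold *SMARCC1* (-0.50) were also called lower. *PBRM1* (-0.40) and *ARID2* (-0.23), which define PBAF, and the core subunit *SMARCB1* (0.15) were not called. The calls of *ARID1B* and *SMARCC1* were lost without control replicate 1 (adjusted p = 0.0633 and 0.0692), and without that library 5 subunits were called higher and 4 lower. *PBRM1* was called lower without *SMARCA1* siRNA A replicate 1 or 2 (adjusted p = 0.00218 and 0.00335), and so was *ARID2* (adjusted p = 0.0175 and 0.0316).

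Across all tested genes, 3847 (22.8%) were called higher and 3769 (22.3%) lower in the knockdown. Of these, 2493 (14.8% of tested genes) were called higher with each siRNA as well, and 2183 (12.9%) lower with each. siRNA A alone gave 2943 genes higher and 2671 lower, and siRNA B alone 3894 and 3707. The siRNA comparisons share both control libraries. Genes called in the same direction with both siRNAs numbered 4676, and 24 were called in opposite directions. To describe the agreement without a shared library, siRNA A was set against control replicate 1 and siRNA B against control replicate 2. Then 13449 of 16899 genes (79.6%) had the same sign, with Pearson's r = 0.831 across genes, which are not independent replicates. Of the 1811 genes past 2-fold with both, 1784 had the same sign. Without the interferon-stimulated and MHC class I genes, the same-sign share was 79.5% and r was 0.792. The number of genes called in the knockdown fell from 7616 to 4413 without control replicate 1 and to 4913 without control replicate 2.

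Functions were described with 69 lists of genes, 3532 distinct genes of which 3138 were tested. The median log2 fold change of all tested genes was 0.00. Counts called in a list are to be read beside the 22.8% higher and 22.3% lower among all tested genes. Genes named from a list for their large changes had been called with each siRNA. That their knockdown libraries lie apart from the controls follows largely from this choice and is no separate support. The list median was below -0.25 in 19 lists and above 0.25 in 15. The medians with siRNA A and with siRNA B were on the same side of 0 in 61 lists, and in 54 the median with siRNA B was the further from 0.

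**Figure D1:**
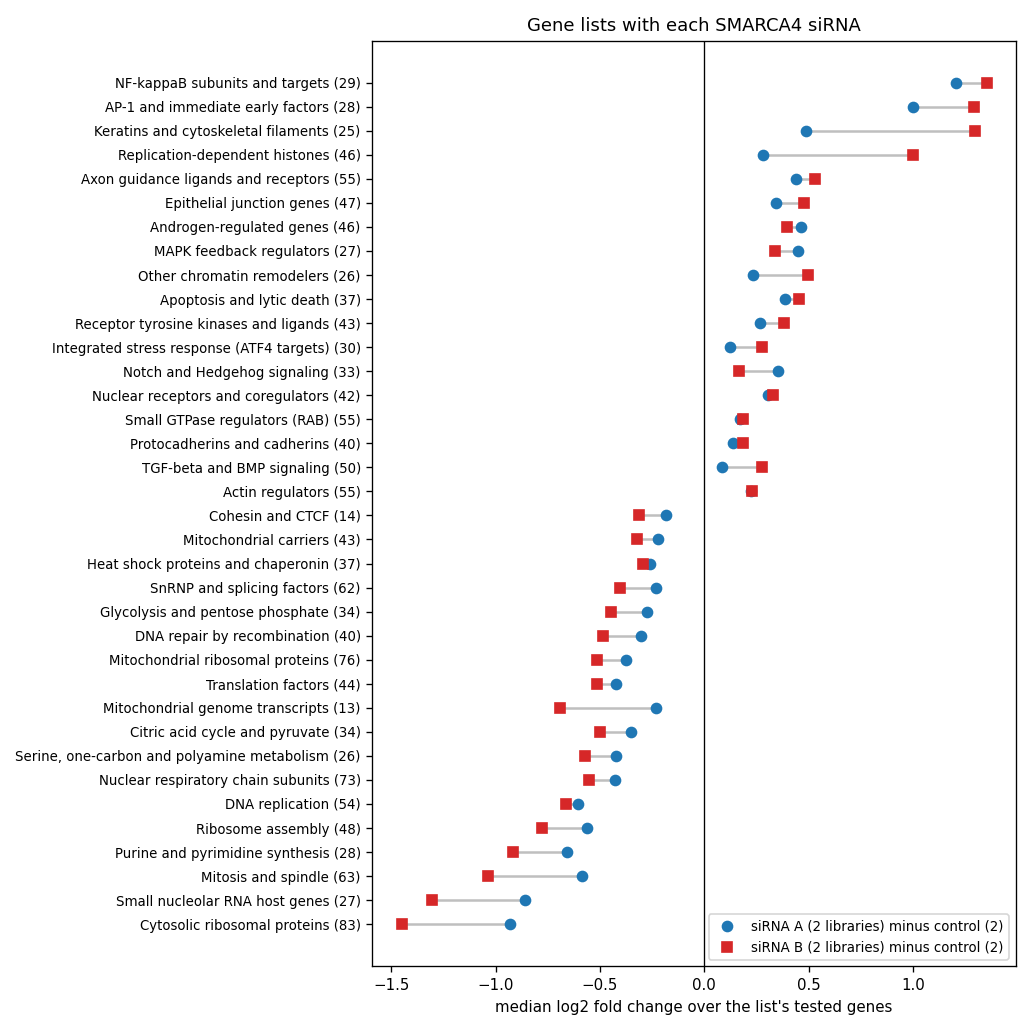
Median log2 fold change over the tested genes of each list (number of tested genes in brackets) with *SMARCA4* siRNA A (circles) and siRNA B (squares), each against the same 2 control libraries, for the 18 lists with the lowest and the 18 with the highest median in the knockdown. Interferon-stimulated genes and MHC class I presentation, whose medians of 6.00 and 3.10 lie beyond the axis, are left out. The cytosolic ribosomal proteins are at the bottom, at -0.93 with siRNA A and -1.45 with siRNA B.

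Genes of protein synthesis fell, and the cytosolic ribosomal proteins had the lowest median of the 69 lists. Of 83 tested cytosolic ribosomal protein genes, 80 were called lower, 77 of them with each siRNA, at a median of -1.19. *RPL22*, a protein of the large subunit, was at 228 and 209.8 CPM in the controls, 75.3 and 95.5 CPM with siRNA A and 50.4 and 54.8 CPM with siRNA B, with a log2 fold change of -1.71 (SE 0.11, adjusted p = 6.12e-06). *RPL7*, also of the large subunit, was at 1849 and 1908 CPM in the controls, 646 and 863 CPM with siRNA A and 472 and 511 CPM with siRNA B, with a log2 fold change of -1.63 (SE 0.12, adjusted p = 1.04e-05). *RPS29* of the small subunit fell with a log2 fold change of -1.67 (SE 0.15, adjusted p = 2.59e-05). In each of these genes every knockdown library was below both controls. Together the list took 7.1% of counts in the controls and 3.15% in the knockdown. *RPL3L*, a paralog of *RPL3* known from muscle, was the only member called higher. It is named here after its values were seen, and at 0.14 to 0.247 CPM in the knockdown it stayed below 1 CPM, and its call was lost without control replicate 1 or 2. Without siRNA A replicate 2, the library that stood apart, 80 ribosomal protein genes were again called lower. Ribosomal protein genes have many near-identical pseudogenes, and how the authors' counting split reads between them is uncertain.

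Most factors that load and move the ribosome fell as well. Of 44 translation factors, 31 were called lower and 0 higher, at a median of -0.45. *EEF1A1*, which brings aminoacyl-tRNA to the ribosome, was at 12825 and 13338 CPM in the controls, 5524 and 7126 CPM with siRNA A and 3977 and 4056 CPM with siRNA B, with a log2 fold change of -1.38 (SE 0.10, adjusted p = 1.26e-05). *EEF1B2*, the exchange factor that recharges it with GTP, fell with a log2 fold change of -1.56 (SE 0.11, adjusted p = 8.21e-06). *EIF3L*, a subunit of the initiation factor that prepares the small subunit, fell with a log2 fold change of -1.27 (SE 0.09, adjusted p = 9.24e-06). The libraries of the knockdown and the controls did not overlap in any of these. Without control replicate 1, the number of translation factors called lower was 19. The share of counts taken by this list was 2.83% and 2.91% in the controls, 1.69% and 1.95% with siRNA A and 1.43% and 1.44% with siRNA B.

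Genes that assemble ribosomes fell too. Of 48 ribosome assembly genes, 40 were called lower and 0 higher, at a median of -0.66. *NHP2*, a protein of the small nucleolar particles that modify ribosomal RNA, was at 145 and 148 CPM in the controls, 61.6 and 68.1 CPM with siRNA A and 45.9 and 41.1 CPM with siRNA B, with a log2 fold change of -1.46 (SE 0.11, adjusted p = 1.46e-05). *DDX21*, a nucleolar helicase, was at 415 and 405 CPM in the controls, 206 and 184 CPM with siRNA A and 130.0 and 106 CPM with siRNA B, with a log2 fold change of -1.43 (SE 0.12, adjusted p = 1.67e-05). *NCL*, which encodes nucleolin, fell with a log2 fold change of -0.82 (SE 0.10, adjusted p = 0.000189). The host genes of small nucleolar RNAs, whose introns carry the guides for that modification, included 27 tested genes, of which 21 were called lower and 0 higher, at a median of -0.97. *GAS5* was at 159 and 143 CPM in the controls, 56.9 and 74.5 CPM with siRNA A and 37.7 and 36.9 CPM with siRNA B, with a log2 fold change of -1.61 (SE 0.11, adjusted p = 9.03e-06). *SNHG4* was at 19.7 and 19.1 CPM in the controls, 5.41 and 6.54 CPM with siRNA A and 3.8 and 2.98 CPM with siRNA B, with a log2 fold change of -2.10 (SE 0.15, adjusted p = 9.24e-06). Both hosts were below the controls in every knockdown library. RNA polymerase I and III subunits were called lower in 11 and higher in 3 of 30, and aminoacyl-tRNA synthetases in 8 and 3 of 20. Without control replicate 1 the counts of lower genes were 7 and 4 and those of higher genes 0 and 1. Without *SMARCA1* siRNA A replicate 1 or 2 the counts of higher genes were 5 and 5, and without either *SMARCA1* siRNA C library 1 polymerase gene was higher. Among the synthetases, *WARS1*, which charges tryptophan and is known to be induced by interferon, rose with a log2 fold change of 1.06 (SE 0.19, adjusted p = 0.00151), whereas *FARSB* and *IARS1* fell at -1.09 and -0.98 on that scale.

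Many of the genes of protein synthesis start with a C followed by a run of pyrimidines, the terminal oligopyrimidine tract that is known to couple their translation to growth signals. The start regions of several falling genes are shown for this feature, from 10 bases before the RefSeq start to 20 bases from it on the gene's strand (GRCh38.p14), with the tract in capitals. They lie at chr1:6199576-6199605 (*RPL22*), chr6:73521013-73521042 (*EEF1A1*), chr22:39319604-39319633 (*RPL3*), each on the minus strand, and chr5:139274091-139274120 (*SNHG4*) on the plus strand.

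RPL22: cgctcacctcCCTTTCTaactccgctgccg

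EEF1A1: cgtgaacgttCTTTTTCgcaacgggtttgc

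RPL3: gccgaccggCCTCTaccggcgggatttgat

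SNHG4: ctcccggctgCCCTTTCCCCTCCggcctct

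A tract was scored, by a rule chosen after these values were seen, where a C and at least 4 further pyrimidines began within 3 bases of the RefSeq start. It was found in 1681 of 11677 tested genes with a start sequence (14.4%), and in 49 of 67 cytosolic ribosomal protein genes (73.1%). All 49 were called lower, at a median of -1.22, and so were 16 of the 18 without a tract, at a median of -1.09. Outside the ribosomal proteins, translation factors and small nucleolar RNA hosts, 23.5% of genes with a tract and 21.7% of genes without were called lower. *RPL3*, a large-subunit protein whose tract is one of the shorter ones, was at 1941 and 2059.6 CPM in the controls, 874 and 1119 CPM with siRNA A and 670.4 and 694 CPM with siRNA B, with a log2 fold change of -1.28 (SE 0.11, adjusted p = 2.35e-05).

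Genes of the mitochondrial ribosome and the respiratory chain fell with medians nearer to 0. Of 76 mitochondrial ribosomal protein genes, 47 were called lower and 1, *MRPL44*, higher, at a median of -0.43. *MRPL15* of its large subunit was at 67.2 and 58 CPM in the controls, 21.8 and 21.4 CPM with siRNA A and 34.7 and 31.3 CPM with siRNA B, with a log2 fold change of -1.23 (SE 0.10, adjusted p = 1.93e-05). *MRPL44* rose by 0.44, a call lost without control replicate 2 (adjusted p = 0.0589). Of 73 nuclear genes for respiratory chain subunits, 50 were called lower and 0 higher, at a median of -0.49. *NDUFS1*, a subunit of complex I, was at 240.5 and 247 CPM in the controls, 139.7 and 162 CPM with siRNA A and 114 and 134 CPM with siRNA B, with a log2 fold change of -0.83 (SE 0.12, adjusted p = 0.000316). Without *SMARCA1* siRNA A replicate 1 or 2, 4 mitochondrial ribosomal protein genes were called higher. Without control replicate 1, 26 mitochondrial ribosomal protein genes and 28 respiratory chain genes were called lower. Of the 13 protein-coding genes of the mitochondrial genome, 8 were called lower and 0 higher, but only 2 with each siRNA, and 5 and 4 were called lower without control replicate 1 and 2, and 5 without siRNA B replicate 1. *MT-CO3*, of complex IV, was at 1480.5 and 1513 CPM in the controls, 718 and 1166 CPM with siRNA A and 379 and 579.6 CPM with siRNA B, and siRNA B was lower than siRNA A with a log2 difference of -0.97 (SE 0.23, adjusted p = 0.0358). That difference was called in 3 of the 10 fits that each leave out 1 library.

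**Figure D2:**
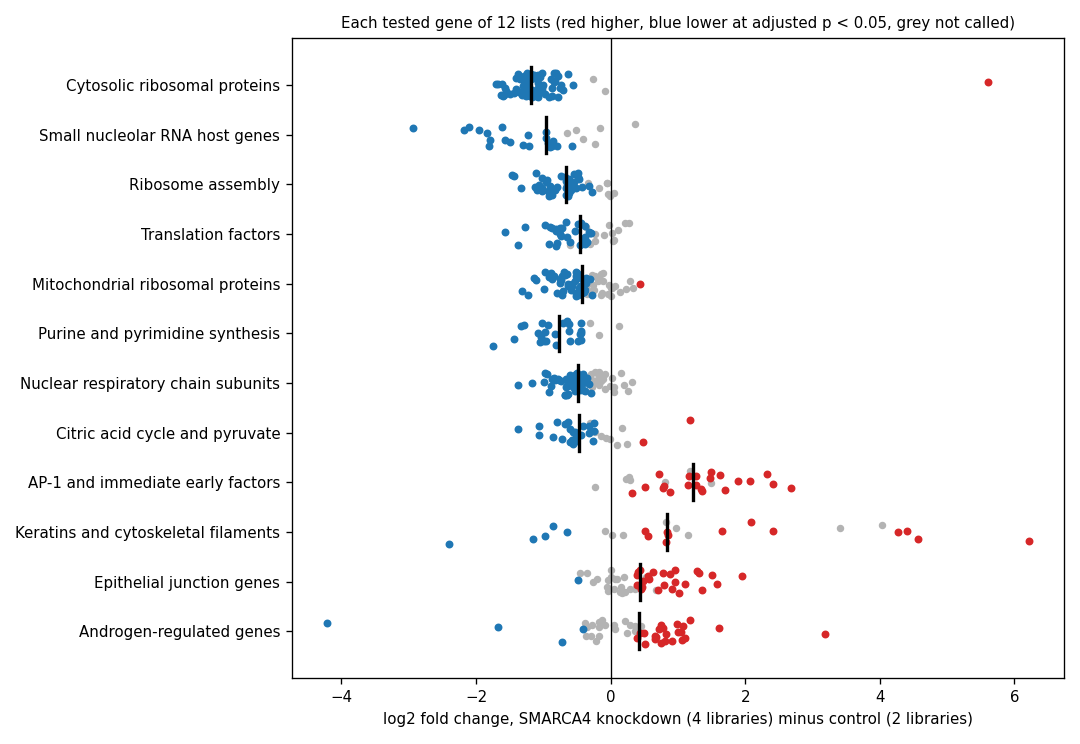
Each point is a tested gene of 12 lists, placed by its log2 fold change in the knockdown (4 libraries) against control (2 libraries). Red and blue mark genes called higher and lower, grey those not called, and the black bar the list median. 80 of 83 cytosolic ribosomal protein genes are blue, and the red point far to their right is *RPL3L*. 21 of 28 AP-1 and immediate early genes are red.

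Most enzymes that build nucleotides fell. Of 28 purine and pyrimidine synthesis genes, 25 were called lower and 0 higher, at a median of -0.76. *PAICS*, a bifunctional enzyme of purine synthesis, was at 367 and 349 CPM in the controls, 125 and 129 CPM with siRNA A and 90.6 and 87.4 CPM with siRNA B, with a log2 fold change of -1.75 (SE 0.09, adjusted p = 1.22e-06). *IMPDH2*, the committed step to guanine nucleotides, was at 315 and 324 CPM in the controls, 131 and 131 CPM with siRNA A and 115 and 97.9 CPM with siRNA B, with a log2 fold change of -1.43 (SE 0.11, adjusted p = 1.18e-05). *NME1*, a nucleoside diphosphate kinase, fell with a log2 fold change of -1.34 (SE 0.14, adjusted p = 7.06e-05). No knockdown library of these genes reached the lower control. One-carbon and polyamine genes were called lower in 14 of 26 and higher in 4. *AHCY*, which clears S-adenosylhomocysteine, was called lower at -1.12, and *SAT1*, which acetylates polyamines for breakdown, rose with a log2 fold change of 1.00 (SE 0.21, adjusted p = 0.00313). Without control replicate 1, 9 genes of that list were lower and 2 higher, and without control replicate 2 again 2 were higher.

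Enzymes of carbon metabolism were more often called lower than higher. Of 34 glycolysis and pentose phosphate genes, 17 were called lower and 4 higher, and of 34 citric acid cycle and pyruvate genes 24 and 2. *LDHA*, the lactate dehydrogenase subunit, was at 861 and 706 CPM in the controls, 271 and 176 CPM with siRNA A and 289 and 237 CPM with siRNA B, with a log2 fold change of -1.69 (SE 0.16, adjusted p = 3.61e-05). *CS*, citrate synthase at the entry of the cycle, was at 424 and 404 CPM in the controls, 179.8 and 179.8 CPM with siRNA A and 219 and 218 CPM with siRNA B, with a log2 fold change of -1.06 (SE 0.08, adjusted p = 1.1e-05). In both, all knockdown libraries were below the controls. *IDH1*, the cytosolic NADP-dependent isocitrate dehydrogenase, went the other way and was at 615 and 580.3 CPM in the controls, 1276 and 1359 CPM with siRNA A and 1303 and 1487 CPM with siRNA B, with a log2 fold change of 1.18 (SE 0.11, adjusted p = 2.7e-05). In the *SMARCA1* knockdown *IDH1* was at 541 to 664 CPM, and the direct comparison of the knockdowns gave 1.17 (SE 0.08, adjusted p = 3.17e-05). The count of lower glycolysis genes was 9 without control replicate 1 and 11 without control replicate 2.

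Most DNA replication and mitosis genes fell, as did chaperonins of the mitochondria. Of 54 replication genes, 41 were called lower and 0 higher, and of 63 mitosis genes 58 and 2. *MCM6*, a subunit of the replicative helicase, was at 137 and 133 CPM in the controls, 59.8 and 63.2 CPM with siRNA A and 55.6 and 60.4 CPM with siRNA B, with a log2 fold change of -1.18 (SE 0.09, adjusted p = 1.05e-05). *CCNA2*, cyclin A2, was at 104 and 89.8 CPM in the controls, 26.3 and 24 CPM with siRNA A and 38.5 and 39.8 CPM with siRNA B, with a log2 fold change of -1.63 (SE 0.11, adjusted p = 5.52e-06). *KIF22*, a chromosome-arm kinesin, was among the 2 mitosis genes called higher, with a log2 fold change of 0.67 (SE 0.11, adjusted p = 0.000822), and it exceeded the *SMARCA1* knockdown with a log2 difference of 1.01 (SE 0.09, adjusted p = 7.64e-05). Among 37 heat shock and chaperonin genes, 17 were called lower and 4 higher (2 without control replicate 1). *HSPD1*, the chaperonin of the mitochondrial matrix, was at 1055 and 1042 CPM in the controls, 552 and 481 CPM with siRNA A and 459.7 and 359.9 CPM with siRNA B, with a log2 fold change of -1.19 (SE 0.11, adjusted p = 3.08e-05), and its partner *HSPE1* fell with a log2 fold change of -1.04 (SE 0.17, adjusted p = 0.000917). *DNAJB4*, a cytosolic co-chaperone, rose with a log2 fold change of 1.13 (SE 0.20, adjusted p = 0.00133). Splicing factors were called lower in 33 of 62 (21 without control replicate 1). *SNRPD3*, a core protein of the spliceosomal snRNPs, fell with a log2 fold change of -1.71 (SE 0.11, adjusted p = 6.46e-06). The 46 proteasome genes divided into 8 higher (5 without control replicate 2) and 7 lower (2 without control replicate 1, 4 without control replicate 2 and 3 to 4 without any 1 knockdown library). The genes called higher included the interferon-inducible subunit *PSMB9* (4.66). The proteasome shares, 17.4% higher and 15.2% lower, were below those of all tested genes (22.8% and 22.3%).

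Antiviral genes rose, with the highest median of the 69 lists. Of 86 tested interferon-stimulated genes, 85 were called higher, at a median of 6.00, and of 22 MHC class I genes 19 were higher and 1, the chaperone *CANX*, lower. *STAT2*, a transducer of type I and III interferon signals, was at 44.5 and 47.5 CPM in the controls, 486 and 296 CPM with siRNA A and 542 and 628 CPM with siRNA B, with a log2 fold change of 3.38 (SE 0.20, adjusted p = 3.65e-06). *B2M*, the light chain of MHC class I, was at 169.9 and 152 CPM in the controls, 1221 and 516 CPM with siRNA A and 2171 and 1329.8 CPM with siRNA B, with a log2 fold change of 2.94 (SE 0.36, adjusted p = 0.00015). *IFNB1*, interferon beta, had no counts in either control and was detected with siRNA A (3.39 and 1.35 CPM) and siRNA B (5.5 and 6.6 CPM), at least 35.5-fold higher when each control is set to the floor of 3 counts per library. The rise was near that of the other knockdown: 8 of the 86 genes were higher and 18 lower than in the *SMARCA1* knockdown, at a median of -0.17, beside 16.3% and 19.1% of all tested genes. Its part in the other results was not tested.

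Most NF-kappaB genes rose in the same libraries, and cell death genes were more often called higher than lower. Of 29 NF-kappaB subunits and targets, 24 were called higher, at a median of 1.31, and *SOD2*, the mitochondrial superoxide dismutase, was the one called lower (-0.74). *TNFAIP3*, which ends the signal, was at 4.52 and 2.6 CPM in the controls, 37.2 and 18.1 CPM with siRNA A and 50.6 and 36.9 CPM with siRNA B, with a log2 fold change of 3.30 (SE 0.34, adjusted p = 6.11e-05). *CXCL1*, a neutrophil chemokine, was at 0.711 and 1 CPM in the controls, 61.3 and 32 CPM with siRNA A and 33.2 and 21.7 CPM with siRNA B, with a log2 fold change of 5.37 (SE 0.39, adjusted p = 9.39e-06). The lowest knockdown library exceeded the higher control in both genes. Of 37 death genes, 19 were called higher and 5 lower (1 without control replicate 2, and 3 without control replicate 1, either *SMARCA1* siRNA C library, siRNA A replicate 1 or siRNA B replicate 1). *TNFSF10* (TRAIL), a death ligand, rose with a log2 fold change of 4.15 (SE 0.33, adjusted p = 1.49e-05), *MLKL*, the effector of necroptosis, with 3.07 (SE 0.27, adjusted p = 2.38e-05), and *CASP8*, the initiator caspase below death receptors, with 1.56 (SE 0.16, adjusted p = 5.1e-05). *CYCS*, cytochrome c, fell with a log2 fold change of -1.17 (SE 0.09, adjusted p = 1.54e-05).

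Most of the listed immediate early transcription factors rose. Of 28 AP-1 and immediate early factors, 21 were called higher and 0 lower, 18 with each siRNA, at a median of 1.23. Against the *SMARCA1* knockdown, 2 of the 28 were higher and 8 lower, at a median of -0.16, beside 16.3% and 19.1% of all tested genes. *EGR1* was at 4.93 and 6.61 CPM in the controls, 30.6 and 23.5 CPM with siRNA A and 59 and 42.7 CPM with siRNA B, with a log2 fold change of 2.68 (SE 0.19, adjusted p = 9.24e-06). *FOSL2*, an AP-1 subunit, was at 33 and 30.3 CPM in the controls, 211 and 110.0 CPM with siRNA A and 202 and 110.5 CPM with siRNA B, with a log2 fold change of 2.32 (SE 0.30, adjusted p = 0.000201). *KLF4*, a factor known for epithelial differentiation and growth arrest, was at 42.7 and 35.7 CPM in the controls, 271 and 149.5 CPM with siRNA A and 241 and 171 CPM with siRNA B, with a log2 fold change of 2.41 (SE 0.24, adjusted p = 5.44e-05). All 4 knockdown libraries of these genes lay above both controls, and with each siRNA replicate 1 was the higher of the pair. *ATF3* rose with a log2 fold change of 2.08 (SE 0.19, adjusted p = 3.11e-05). *MYC*, the growth factor-induced regulator of ribosome and nucleotide genes, is not a member of that list and fell. It was at 318 and 328 CPM in the controls, 87.4 and 102 CPM with siRNA A and 42.2 and 25.8 CPM with siRNA B. Its log2 fold change was -2.51 (SE 0.16, adjusted p = 4.53e-06).

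Signaling genes outside this group changed in either direction. In the integrated stress response list, 14 of 30 were called higher and 6 lower, and 9 and 8 were higher without control replicate 1 and 2. *CHAC1*, which degrades glutathione, rose with a log2 fold change of 2.28 (SE 0.32, adjusted p = 0.000376), while *STC2*, a secreted glycoprotein, fell with a log2 fold change of -1.42 (SE 0.13, adjusted p = 2.99e-05). Of 50 TGF-beta and BMP genes, 17 were called higher (8 without control replicate 2) and 9 lower (4 without control replicate 1 and 5 without siRNA A replicate 1). *ID1*, a target of BMP signals that blocks differentiation factors, was at 149 and 144 CPM in the controls, 715 and 434 CPM with siRNA A and 771 and 461 CPM with siRNA B, with a log2 fold change of 2.02 (SE 0.29, adjusted p = 0.000393). *SMAD7*, a feedback inhibitor of the pathway, rose with a log2 fold change of 1.02 (SE 0.16, adjusted p = 0.00061). Of 33 Notch and Hedgehog genes, 15 were called higher and 5 lower (2 and 3 without control replicate 1 and 2). *HES1*, a direct Notch target, was at 17.5 and 15.9 CPM in the controls, 66 and 42.9 CPM with siRNA A and 65.8 and 39.2 CPM with siRNA B, with a log2 fold change of 1.68 (SE 0.27, adjusted p = 0.000858), while the Notch ligand *JAG2* fell with a log2 fold change of -1.40 (SE 0.12, adjusted p = 1.88e-05). The list of Hippo pathway genes and YAP targets gave 12 higher and 4 lower of 33 (2 and 1 lower without control replicate 1 and 2, and 7 without *SMARCA1* siRNA A replicate 1). *ANKRD1*, a YAP target, rose with a log2 fold change of 2.60 (SE 0.48, adjusted p = 0.00165) but was below the *SMARCA1* knockdown, with a log2 difference of -1.78 (SE 0.31, adjusted p = 0.00205).

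Many epithelial structure genes rose. Of 47 junction genes, 25 were called higher and 1 lower (5 and 3 without *SMARCA1* siRNA A replicate 1 and 2), at a median of 0.43. *CGN*, which encodes cingulin of the tight junction, was at 104 and 118 CPM in the controls, 359 and 328 CPM with siRNA A and 315 and 272 CPM with siRNA B, with a log2 fold change of 1.51 (SE 0.11, adjusted p = 9.02e-06). *TJP3*, a scaffold of the same junction, was at 5.27 and 4.87 CPM in the controls, 17.7 and 12.1 CPM with siRNA A and 29.2 and 22.9 CPM with siRNA B, with a log2 fold change of 1.96 (SE 0.20, adjusted p = 6.11e-05). Neither gene had a knockdown library within the range of the controls. *CDH1*, E-cadherin, rose with a log2 fold change of 0.63 (SE 0.13, adjusted p = 0.00342), or 0.34 with siRNA A and 0.92 with siRNA B, and was not called with siRNA A. Among 25 keratin and filament genes, 12 were called higher and 5 lower. *KRT8*, the luminal keratin, was at 542 and 538 CPM in the controls, 1915 and 1393 CPM with siRNA A and 2093 and 1426 CPM with siRNA B, with a log2 fold change of 1.66 (SE 0.22, adjusted p = 0.000249). *KRT14*, a basal keratin, was at 3.05 and 3.57 CPM in the controls, 57.5 and 36.9 CPM with siRNA A and 108 and 102 CPM with siRNA B, with a log2 fold change of 4.40 (SE 0.24, adjusted p = 2.27e-06). *NEFL*, a neuronal filament, fell with a log2 fold change of -1.15 (SE 0.18, adjusted p = 0.000639), and *LMNB1*, a lamin of the nuclear envelope, with -0.97 (SE 0.09, adjusted p = 3.31e-05). The basal marker *TP63* stayed near 0, at 0 to 0.105 CPM in the knockdown libraries.

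Genes regulated by androgen were more often called higher than lower. Of 46 tested, 23 were called higher and 4 lower, at a median of 0.42. Among all tested genes, 22.8% were called higher and 22.3% lower. *MSMB*, a secreted protein of the prostate, was at 0.418 and 0.334 CPM in the controls, 3.46 and 1.16 CPM with siRNA A and 7.2 and 3.05 CPM with siRNA B, with a log2 fold change of 3.18 (SE 0.67, adjusted p = 0.00343). *TGM4*, the prostate transglutaminase, was at 33.9 and 30 CPM in the controls, 0.943 and 2.11 CPM with siRNA A and 1.61 and 2.25 CPM with siRNA B, with a log2 fold change of -4.21 (SE 0.22, adjusted p = 2.27e-06), the largest fall in that list. *KLK2*, a kallikrein protease, was at 4666 and 4940.5 CPM in the controls, 2343 and 2498 CPM with siRNA A and 3273 and 3740.1 CPM with siRNA B, with a log2 fold change of -0.72 (SE 0.11, adjusted p = 0.000644). The knockdown libraries of *TGM4* and *KLK2* were below both controls and those of *MSMB* above them. *NR3C1*, the glucocorticoid receptor, was at 7.11 and 6.91 CPM in the controls, 27 and 18.1 CPM with siRNA A and 30.5 and 27.1 CPM with siRNA B, with a log2 fold change of 1.86 (SE 0.20, adjusted p = 6.88e-05). Against the *SMARCA1* knockdown, 21 of the 46 androgen-regulated genes were higher and 4 lower, beside 16.3% and 19.1% of all tested genes in that comparison.

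Adhesion and guidance genes included both large rises and large falls. Of 55 axon guidance ligands and receptors, 26 were called higher and 9 lower (5 and 2 lower without control replicate 1 and 2). *EPHA2*, an ephrin receptor of epithelia, was at 1 and 1.19 CPM in the controls, 8 and 3.49 CPM with siRNA A and 6.15 and 2.25 CPM with siRNA B, with a log2 fold change of 2.16 (SE 0.48, adjusted p = 0.00488). *EPHA8*, an ephrin receptor of neural tissue, was at 2.43 and 2.82 CPM in the controls, 0.349 and 0.503 CPM with siRNA A and 0.247 and 0.175 CPM with siRNA B, with a log2 fold change of -3.10 (SE 0.28, adjusted p = 2.7e-05). Of 35 integrin and focal adhesion genes, 13 were called higher and 8 lower. *ITGA3*, a laminin-binding integrin, was at 59.3 and 61.9 CPM in the controls, 195 and 177 CPM with siRNA A and 203 and 189 CPM with siRNA B, with a log2 fold change of 1.66 (SE 0.10, adjusted p = 4.75e-06), and *ITGA5*, the fibronectin receptor chain, rose with a log2 fold change of 2.35 (SE 0.32, adjusted p = 0.000272). *PARVB*, a focal adhesion adaptor, fell with a log2 fold change of -1.38 (SE 0.12, adjusted p = 2.21e-05). In this integrin list 37.1% were called higher and 22.9% lower, beside 22.8% and 22.3% of all tested genes. Without control replicate 1 or 2, 3 and 4 genes of that list were called lower, and 5 without siRNA A replicate 1 or siRNA B replicate 1.

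Chromatin genes other than SWI/SNF divided by family. Of 26 other remodelers, 12 were called higher and 3 lower (1 without control replicate 1 or 2, siRNA A replicate 1 or siRNA B replicate 1). *BAZ2A*, a partner of the ISWI motor at silent ribosomal DNA, was at 312 and 322 CPM in the controls, 666 and 539 CPM with siRNA A and 674 and 729.7 CPM with siRNA B, with a log2 fold change of 1.04 (SE 0.15, adjusted p = 0.00046). *CHD6*, a CHD-family motor, rose with a log2 fold change of 0.97 (SE 0.21, adjusted p = 0.00438), and *HELLS*, a helicase of proliferating cells, fell with a log2 fold change of -1.11 (SE 0.12, adjusted p = 7.06e-05). Polycomb and DNA methylation genes were called higher in 6 and lower in 10 of 26 (3 higher without control replicate 1, and 6 lower without control replicate 2). *EZH2*, the methyltransferase of PRC2, fell with a log2 fold change of -0.68 (SE 0.10, adjusted p = 0.00042), and *CBX2*, a reader of its mark, with -1.12 (SE 0.09, adjusted p = 2e-05). *MTF2*, an accessory protein of PRC2, rose with a log2 fold change of 0.83 (SE 0.14, adjusted p = 0.00114). Of 46 replication-dependent histone genes, 19 were called higher and 2 lower, at a median of 0.28 with siRNA A and 1.00 with siRNA B. *H1-2*, a linker histone, was at 169 and 180.2 CPM in the controls, 506 and 322 CPM with siRNA A and 566 and 349 CPM with siRNA B, with a log2 fold change of 1.32 (SE 0.28, adjusted p = 0.00357). In the *SMARCA1* knockdown it was at 624 to 1141 CPM. These transcripts mostly lack a poly(A) tail, and the libraries were made from polyadenylated RNA, so their counts cover only the tailed part. The 468 tested ZNF genes held 96 higher (20.5%) and 58 lower (12.4%). Without control replicate 1 those counts were 51 and 16, and without control replicate 2 they were 56 and 28. Without siRNA A replicate 1 or siRNA B replicate 1, 35 and 33 were lower.

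Lipid, stress and degradation genes held changes in both directions. Cholesterol genes were called higher in 6 and lower in 2 of 34, unfolded protein response genes in 9 and 3 of 39, and hypoxia targets in 12 and 10 of 33. In that order the shares were 17.6% and 5.88%, 23.1% and 7.69%, and 36.4% and 30.3%, beside 22.8% and 22.3% of all tested genes. The cholesterol genes were thus called less often than all tested genes in both directions. Cholesterol genes called higher were 10 and unfolded protein response genes 15 without *SMARCA1* siRNA A replicate 2, unfolded protein response genes called lower were 5 without *SMARCA1* siRNA A replicate 1, and hypoxia targets called lower were 5 without control replicate 1. *NPC1*, which exports cholesterol from lysosomes, rose with a log2 fold change of 0.69 (SE 0.13, adjusted p = 0.00229). Fatty acid synthesis gave 6 and 9 of 32 (3 and 5 without control replicate 1), or 18.8% and 28.1%. *SCD*, the stearoyl-CoA desaturase, was at 1861 and 1752 CPM in the controls, 915 and 889 CPM with siRNA A and 705 and 855 CPM with siRNA B, with a log2 fold change of -1.11 (SE 0.13, adjusted p = 0.000137), while *ACSL1*, which activates fatty acids, rose with a log2 fold change of 1.15 (SE 0.17, adjusted p = 0.000514). In autophagy, 13 of 41 were called higher and 6 lower (3 without control replicate 2 or siRNA A replicate 1). *WIPI1*, which marks forming autophagosomes, was at 11 and 12.7 CPM in the controls, 44.4 and 42 CPM with siRNA A and 36.6 and 32.2 CPM with siRNA B, with a log2 fold change of 1.70 (SE 0.15, adjusted p = 2.7e-05). *GABARAPL1*, of the ATG8 family, rose with a log2 fold change of 1.60 (SE 0.20, adjusted p = 0.000206). Lysosomal genes gave 13 higher and 3 lower of 46 (0 lower without control replicate 1 or 2, siRNA A replicate 1 or siRNA B replicate 1, and 1 without *SMARCA1* siRNA C replicate 1). Of 15 RNA interference genes, 4 were called lower (7 without *SMARCA1* siRNA A replicate 1) and 0 higher, with *AGO2*, the slicer of siRNA-guided cleavage, at 175 and 162 CPM in the controls, 70 and 80.8 CPM with siRNA A and 58.4 and 63.8 CPM with siRNA B, or a log2 fold change of -1.31 (SE 0.21, adjusted p = 0.000669). *AGO2* was at 49.3 to 99.1 CPM in the *SMARCA1* knockdown. The share of RNA interference genes called lower, 26.7%, is near the 22.3% of all tested genes.

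Receptors, transporters and regulators of growth were mixed. Of 40 cell cycle inhibitors and genes listed with them, 12 were called higher and 11 lower (5 and 4 lower without control replicate 1 and 2, and 6 without siRNA B replicate 1). *CDKN2B*, an inhibitor of the kinases that start the cell cycle, was at 3.1 and 2.12 CPM in the controls, 8.31 and 6.92 CPM with siRNA A and 9.4 and 7.44 CPM with siRNA B, with a log2 fold change of 1.62 (SE 0.20, adjusted p = 0.000152). All 4 knockdown libraries were above both controls. The shares of that list, 30.0% higher and 27.5% lower, stand beside 22.8% and 22.3% of all tested genes. Of the receptor tyrosine kinases and their ligands, *RET*, a receptor of glial-derived growth factors, was at 0.669 and 0.892 CPM in the controls, 12.4 and 5.5 CPM with siRNA A and 19.5 and 22.4 CPM with siRNA B, with a log2 fold change of 4.11 (SE 0.36, adjusted p = 2.61e-05). Nuclear receptors and coregulators were called higher in 17 (11 without control replicate 1) and lower in 3 of 42, and prostate luminal transcription factors in 11 and 4 of 39. *GSN*, the actin-severing protein gelsolin, was at 17.9 and 16.6 CPM in the controls, 119.8 and 47.4 CPM with siRNA A and 203 and 83.3 CPM with siRNA B, with a log2 fold change of 2.67 (SE 0.47, adjusted p = 0.00132). *SLC39A8*, a zinc and manganese importer, was at 21.8 and 17.9 CPM in the controls, 6.63 and 6 CPM with siRNA A and 6.3 and 4.35 CPM with siRNA B, with a log2 fold change of -1.77 (SE 0.15, adjusted p = 2.14e-05), whereas the metallothionein *MT2A* rose with a log2 fold change of 1.47 (SE 0.29, adjusted p = 0.0027). *HADH*, of mitochondrial fatty acid oxidation, fell with a log2 fold change of -1.24 (SE 0.10, adjusted p = 1.74e-05). *KISS1R*, the kisspeptin receptor, was at 4.85 and 4.57 CPM in the controls, 0.943 and 1.13 CPM with siRNA A and 0.494 and 0.316 CPM with siRNA B, with a log2 fold change of -2.84 (SE 0.24, adjusted p = 2.14e-05), and every knockdown library was below both controls.

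**Figure D3:**
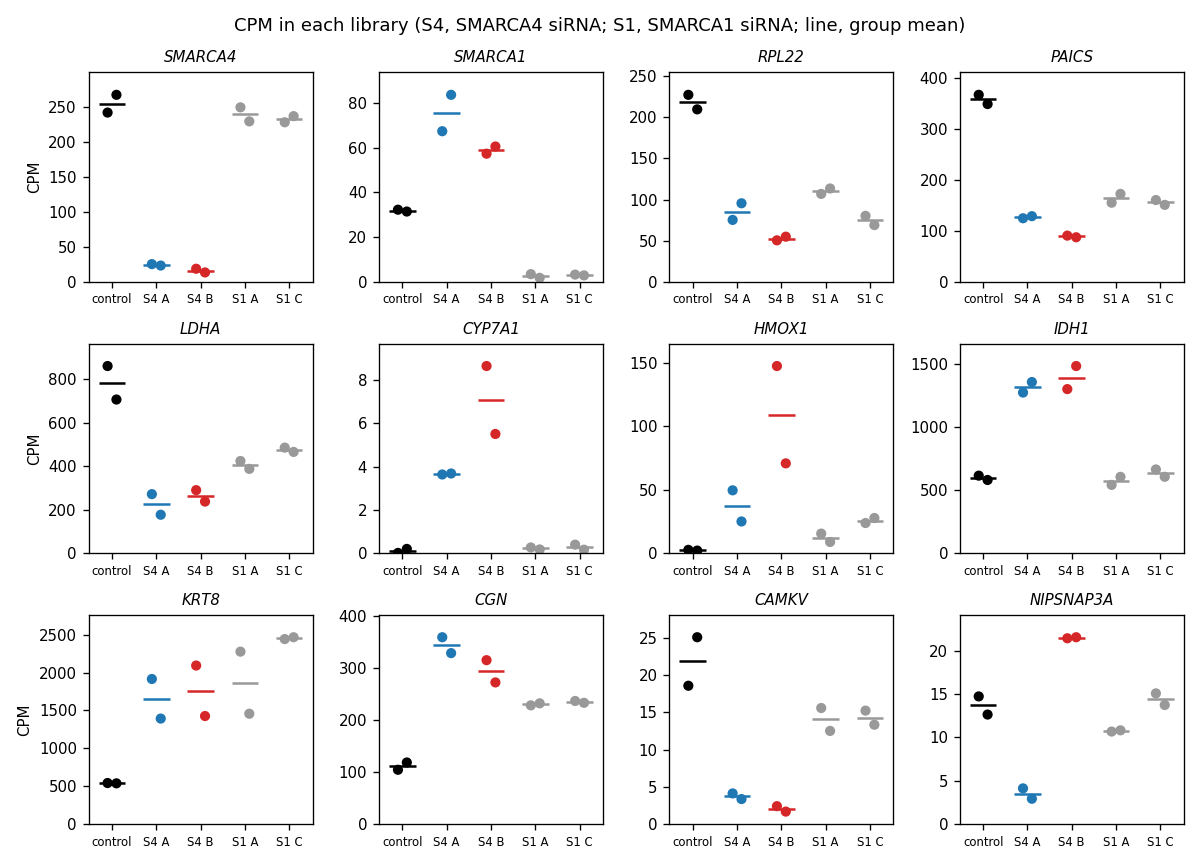
CPM of 12 genes in each library, with a line at the mean of each pair of libraries, for control, *SMARCA4* siRNA A and B (S4) and *SMARCA1* siRNA A and C (S1). The vertical axes are linear and start at 0. *IDH1* and *CYP7A1* were high only in the *SMARCA4* libraries shown, *RPL22* and *PAICS* were low in both knockdowns, and *NIPSNAP3A* was lowest with *SMARCA4* siRNA A.

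Which of these changes differ from the other knockdown was tested directly, in a contrast that holds no control library. *SMARCA4* knockdown exceeded *SMARCA1* knockdown in 2752 genes (16.3%) and was below it in 3230 (19.1%). Of the cytosolic ribosomal protein genes, 71 of 83 were lower than in the *SMARCA1* knockdown, at a median of -0.45. The same held for 38 of 48 ribosome assembly genes, 21 of 28 nucleotide synthesis genes, 44 of 73 respiratory chain genes and 23 of 37 heat shock genes. Of the histone genes, 26 of 46 were lower than in the *SMARCA1* knockdown although 19 were above control. Among ZNF genes, 122 were higher and 29 lower than in the *SMARCA1* knockdown. Of the 29 NF-kappaB genes, most of which were above control, 5 were higher and 3 lower than in that knockdown, at a median of 0.12. For the 25 keratin and filament genes the counts were 2 and 10, at a median of -0.33. For the 47 junction genes they were 12 and 6, at a median of 0.17. The number of genes called in this comparison fell from 5982 to 3683 without *SMARCA1* siRNA C replicate 1 and to 3839 without *SMARCA4* siRNA B replicate 2.

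**Figure D4:**
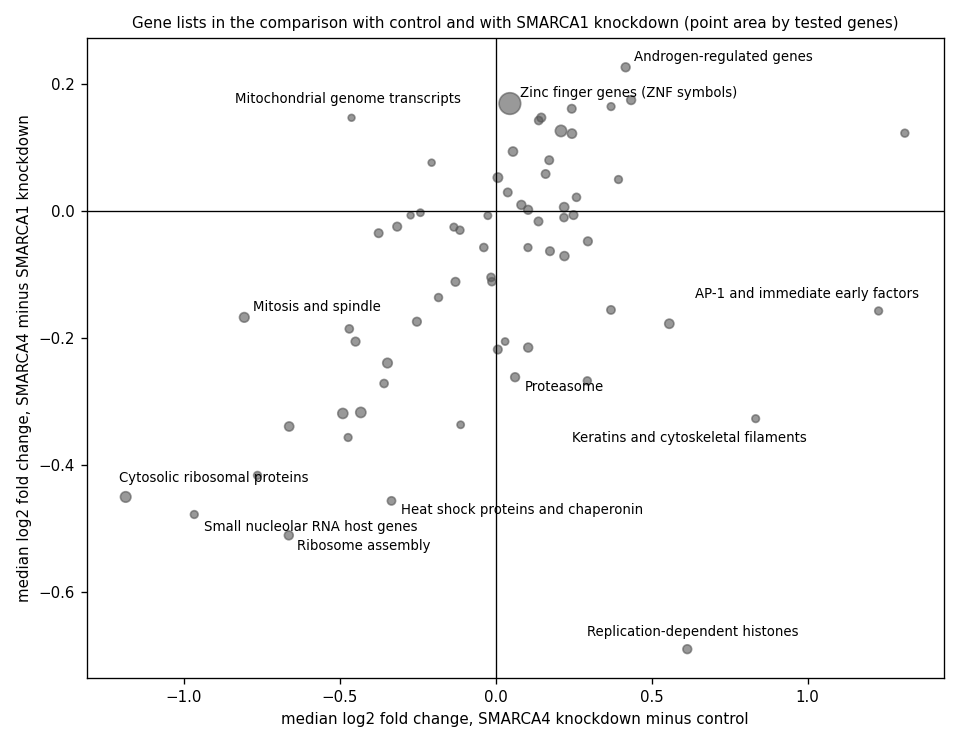
Median log2 fold change of each list against control (horizontal) and against the *SMARCA1* knockdown (vertical), with point area by the number of tested genes. Both comparisons use the same *SMARCA4* libraries. Interferon-stimulated genes and MHC class I presentation lie beyond the horizontal axis and are not drawn. Ribosomal proteins lie low on both axes, and histones lie right of 0 against control but at -0.69 against the *SMARCA1* knockdown.

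The genes with the largest changes against both references included metabolic, secreted and neuronal genes. *CYP7A1*, the rate-limiting enzyme of bile acid synthesis, was at 0 and 0.186 CPM in the controls, 3.63 and 3.68 CPM with siRNA A and 8.65 and 5.51 CPM with siRNA B, and at 0.15 to 0.384 CPM in the *SMARCA1* knockdown. Against that knockdown it was higher with a log2 difference of 4.41 (SE 0.35, adjusted p = 5.57e-05). *HMOX1*, heme oxygenase 1, was at 2.43 and 1.86 CPM in the controls, 49.4 and 24.8 CPM with siRNA A and 148 and 70.7 CPM with siRNA B, with a log2 fold change of 4.90 (SE 0.47, adjusted p = 4.01e-05), and exceeded the *SMARCA1* knockdown with a log2 difference of 1.86 (SE 0.28, adjusted p = 0.001). *CAMKV*, a kinase-like protein of neurons, was at 18.6 and 25.1 CPM in the controls, 4.12 and 3.36 CPM with siRNA A and 2.41 and 1.68 CPM with siRNA B, with a log2 fold change of -2.98 (SE 0.18, adjusted p = 3.93e-06), and was below the *SMARCA1* knockdown with a log2 difference of -2.35 (SE 0.16, adjusted p = 2.96e-05). *DDN*, which encodes dendrin, was at 31.2 and 33.4 CPM in the controls, 6.53 and 5.94 CPM with siRNA A and 4.02 and 3.19 CPM with siRNA B, with a log2 fold change of -2.76 (SE 0.12, adjusted p = 5.49e-07), and *GAL*, the neuropeptide galanin, was at 17.4 and 18.8 CPM in the controls, 4.4 and 3.93 CPM with siRNA A and 3.49 and 2.74 CPM with siRNA B, with a log2 fold change of -2.33 (SE 0.15, adjusted p = 5.71e-06). Both were also below the *SMARCA1* knockdown, with log2 differences of -2.05 and -1.92. *SCUBE2*, a secreted protein that releases Hedgehog ligand, was at 100.5 and 103 CPM in the controls, 12.1 and 14.5 CPM with siRNA A and 18.4 and 18.4 CPM with siRNA B, with a log2 fold change of -2.70 (SE 0.11, adjusted p = 4.89e-07). *MCAM*, a cell adhesion molecule, fell with a log2 fold change of -2.28 (SE 0.13, adjusted p = 3.45e-06), and *WNT2*, a WNT ligand, with -2.0 (SE 0.14, adjusted p = 7.88e-06). In all of these genes the 4 knockdown libraries lay on 1 side of both controls. These genes had been picked among those called with each siRNA, which makes this likely, so it is no separate support.

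The siRNAs were compared with each other in a contrast without control libraries. siRNA B was higher than siRNA A in 535 genes (3.17%) and lower in 513 (3.04%). Of these 1048 genes, 736 were also called in the knockdown: 264 were higher than control and higher with siRNA B, and 314 were lower than control and lower with siRNA B. The opposite held for 59 and 99. *SMARCA4* itself was lower with siRNA B, with a log2 difference of -0.60 (SE 0.15, adjusted p = 0.0485), called in 3 of the 10 fits that leave out 1 library. Of the cytosolic ribosomal protein genes, 29 were lower with siRNA B and 0 higher. The count rests on few libraries: it was 48 without *SMARCA4* siRNA A replicate 2, 134 without siRNA B replicate 1 and 99 without siRNA B replicate 2, 421 and 422 without control replicate 1 and 2, 379 and 326 without *SMARCA1* siRNA C replicate 1 and 2, and 2873 and 2907 without *SMARCA1* siRNA A replicate 1 and 2. With each of the 10 libraries left out in turn, 42 of the 1048 genes were called every time.

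Individual genes differed between the siRNAs, *NIPSNAP3A* and *ST3GAL5* in direction against control and the others named here in size. *NIPSNAP3A*, a mitochondrial protein, was at 14.7 and 12.6 CPM in the controls, 4.12 and 2.92 CPM with siRNA A and 21.4 and 21.5 CPM with siRNA B. It lay below the controls with siRNA A and above them with siRNA B, and siRNA B exceeded siRNA A with a log2 difference of 2.61 (SE 0.18, adjusted p = 0.000559). *ST3GAL5*, the synthase of ganglioside GM3, was at 6.82 and 6.65 CPM in the controls, 9.18 and 9.9 CPM with siRNA A and 2.97 and 3.02 CPM with siRNA B, and siRNA B was lower than siRNA A with a log2 difference of -1.67 (SE 0.16, adjusted p = 0.00192). *VTN*, vitronectin, was at 6.61 and 5.98 CPM in the controls, 29.2 and 30.7 CPM with siRNA A and 11.2 and 8.53 CPM with siRNA B, above the controls with each siRNA and lower with siRNA B with a log2 difference of -1.60 (SE 0.17, adjusted p = 0.00296). *MYC* was also lower with siRNA B, with a log2 difference of -1.48 (SE 0.19, adjusted p = 0.00551). These 4 differences were called in each of the 10 fits that leave out 1 library. *VIM*, vimentin, was at 3.43 and 3.34 CPM in the controls, 0 and 0.44 CPM with siRNA A and 1.73 and 1.82 CPM with siRNA B, and its difference of 2.93 (SE 0.71, adjusted p = 0.0399) was called in 4 of the 10. Whether a gene that moved with 1 siRNA carries a partial match to it was not tested.

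Features of the genes were compared with the calls, as a description. Of 13560 protein-coding genes, 25.4% were called higher and 23% lower, and of 980 lncRNA genes 11.1% and 19.1%. When genes were cut into 4 groups of equal size by CPM, 12.1% and 12.9% were called in the lowest group and 28.2% and 27.0% in the highest. Chromosome 19 had 27.7% of its genes called higher and 16.4% lower, and chromosome 13 had 20.1% and 28.0%. In windows of 300 bases at the RefSeq start (250 before and 50 after, GRCh38.p14), motifs were searched on both strands by their letters. The sets called with each siRNA leave out the interferon-stimulated and MHC class I genes, which the set of all promoters keeps. The E-box CACGTG, the element bound by *MYC* and its partner, was in 9.79% of all 11677 promoters, 12.8% of those called lower with each siRNA and 8.77% of those called higher with each. The E2F element TTTCGCGC was in 1.02%, 1.92% and 0.509%, and CCAAT in 36.6%, 41.0% and 33.7%. The AP-1 element TGANTCA was in 4.62% of all, 3.64% of lower and 6.68% of higher promoters. The element TTCNNTTTC of interferon-regulated promoters was in 6.47% of all and in 41 of 65 interferon-stimulated genes (63.1%). A match is a string of letters and not a measured binding site.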

How the data were processed

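RNA of VCaP cells was sequenced as poly(A)-selected, strand-specific libraries. Per the labels and the study's methods, the authors aligned trimmed reads to GRCh38 with HISAT2 (2.1.0 in the submitters' processing notes) and counted them with featureCounts (1.5.2) on GENCODE annotations of a release not given in the sources used here. The authors deposited raw counts per gene symbol, 1 file for each of the 10 libraries, with totals of 23898545 to 34667965, and no other columns were used. Symbols were matched to GENCODE v44 for positions and types (39004 matched and 20382 did not).

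Counts were filtered with filterByExpr (minimum count 10, minimum total 15), scaled by TMM and fitted with edgeR 4.0.16 (R 4.3.3, limma 3.58.1) as 5 groups of 2 libraries, with the quasi-likelihood test and Benjamini-Hochberg adjustment. The contrasts were the mean of siRNA A and B against control, each siRNA against control, siRNA B against A, and *SMARCA4* against *SMARCA1* knockdown. Agreement of the siRNAs used log2 CPM with a prior count of 2. The fits were tested on simulated data with the same spread in every group, so the uneven spread of the real groups was not covered. Genes called in the right direction were 10 of 34 at 1.5-fold and 13 of 33 at 0.67-fold. They were 31 of 34 at 2-fold and 31 of 33 at 0.5-fold, so small changes were often missed. The alternatives were DESeq2 1.42.0, other scalings and filters, a minimum fold, a replicate block and leaving out each library.

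The members and lists were chosen with earlier results of these data known. Genes were named by a rule: the subunits, an anchor gene for each list, the members of each list that moved most with both siRNAs, the largest changes against control, against both references and between the siRNAs, and cell type markers. *RPL3L* was named after its values were seen. Genes named for large changes against control had been called with each siRNA. That their knockdown libraries did not overlap the controls follows largely from this choice. Intervals of depth and floors cover counting error only. A few of the listed genes are not reported here.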

Additional observations from a re-analysis of the deposited data

Results flagged for a closer look

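The results below are genes named in the report whose change with siRNA B differed from that with siRNA A when the difference itself was tested in the edgeR fit. Values are log2 differences of siRNA B minus siRNA A, and both siRNAs share the control libraries. Of the 31 genes, 4 were called in each of the 10 fits that leave out 1 library: *NIPSNAP3A* (2.61), *MYC* (-1.48), *ST3GAL5* (-1.67) and *VTN* (-1.60). The other 27 lost the call in at least 1 of those fits.

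Among genes of protein synthesis, siRNA B was lower for *GAS5* (-0.82), *SNHG4* (-0.81), *EEF1B2* (-0.77), *DDX21* (-0.73), *RPL22* (-0.70), *EEF1A1* (-0.66), *RPL7* (-0.62), *NHP2* (-0.58) and *RPL3* (-0.55), while *MRPL15* was higher (0.61). *SMARCA4* itself differed by -0.60.

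Among other genes lower in the knockdown, siRNA B was further below siRNA A for *MT-CO3* (-0.97), *DDN* (-0.79), *SNRPD3* (-0.58), *CYCS* (-0.56), *EZH2* (-0.52), *PAICS* (-0.51) and *LMNB1* (-0.51). It was above siRNA A for *VIM* (2.93), *CCNA2* (0.64) and *KLK2* (0.53).

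Among genes higher in the knockdown, siRNA B exceeded siRNA A for *HMOX1* (1.56), *RET* (1.23), *KRT14* (1.15), *EGR1* (0.91), *TJP3* (0.81) and *CDH1* (0.58). The part of siRNA A replicate 2, whose share of counts from interferon-stimulated genes was the lowest of the knockdown libraries, was tested only by leaving it out, which left 48 genes called between the siRNAs.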

How the results depend on the processing

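The scalings, DESeq2 and the filters kept the knockdown counts within 1.5 times, except between the siRNAs. A minimum fold of 1.5 left 2375 genes called in the knockdown, 1406 with siRNA A, 2990 with siRNA B, 18 between the siRNAs and 738 against the *SMARCA1* knockdown. Between the siRNAs, 1759 genes were called from the 6 libraries alone, 1661 by DESeq2 and 2352 without a filter, beside 1048. Leaving out each library in turn gave 4413 to 9183 genes in the knockdown, 2862 to 7387 with siRNA A, 4918 to 9152 with siRNA B, 48 to 2907 between the siRNAs and 3683 to 8072 against the *SMARCA1* knockdown. A group left with 1 library is assumed to vary like the others. The spread was uneven between groups, although the fit shares its estimate. The chi-square between the 2 libraries of a group averaged 6.39 per gene for control. It was 42.9 and 22.6 for *SMARCA4* siRNA A and B, and 60.6 and 3.8 for *SMARCA1* siRNA A and C. The siRNA A count was 2862, 3159 and 3095 without control replicate 1, control replicate 2 and siRNA A replicate 1, and the siRNA B count 4918 and 5035 without control replicate 1 and siRNA B replicate 1. The cause was not tested. Exchanging the controls gave 78.8% of genes with the same sign, also with a prior count of 0.5. The change of *SMARCA4* ranged from -3.78 to -3.56.

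Of the 122 named genes, 8 changed their call against control without 1 library. *SMARCA2*, not called, ranged from -0.033 to 0.081 over the left-out libraries and was at 0.012 without a filter. *VIM* was not called by DESeq2 (adjusted p = 0.172).

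Replicate numbers were not taken as a pairing, since nothing ties them to a shared culture or day. Deviations from the group means correlated at 0.362 between siRNA A and siRNA B, at 0.125 and 0.266 between *SMARCA1* siRNA A and each of these, and at -0.103 to 0.0484 between the other groups. With the replicate number as a block, 7788 genes were called in the knockdown, 5778 with siRNA A, 7729 with siRNA B, 1301 between the siRNAs and 6247 against the *SMARCA1* knockdown.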
